A study of Mus musculus with 6 samples.

Results

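The genes described here are 10 clade B serpins of a cluster on mouse chromosome 1, Serpinb2, Serpinb3a, Serpinb3b, Serpinb3c, Serpinb3d, Serpinb5, Serpinb7, Serpinb8, Serpinb12 and Serpinb13. They were matched by symbol to the deposited table, where all 10 had a row among 17564 genes, and they span 747.8 kb. The set was selected on family and position with the treated and untreated values of these samples already known, so the differences between the groups are given for these genes as a description, with no p for any member, and counts of members past the threshold are set beside the share of all genes only. Serpinb10 and Serpinb11, the 2 other clade B serpins of the cluster with a row, lie between members and are given for comparison.

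RNA came from whole back skin of wild-type C57BL/6 mice aged 8 weeks, all shaved and depilated. Untreated skin (3 samples) received nothing further. Treated skin (3 samples) received SspA, the V8 serine protease of Staphylococcus aureus, together with HDM, an extract of house dust mites, on the skin surface (3 µg SspA, 10 µg HDM), a second time on day 3, and was taken on day 7 after the first dose. No collection day is given for the untreated samples, and the labels leave unsaid whether each sample was a different mouse. The comparison asks how expression in skin differs after the protease and the mite extract. U1 to U3 are the untreated libraries and T1 to T3 the treated ones.

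Clade B serpins are ovalbumin-type proteins that mostly stay inside the cell. An inhibitory serpin offers an exposed stretch near its carboxy-terminal end, the reactive centre loop, as bait, and the protease that cuts it is trapped and deformed, so the letters of that loop largely set which protease is caught. In epidermis several of these serpins are made by keratinocytes, and inherited loss of the human relatives of Serpinb7 and Serpinb8 causes keratosis or peeling of the skin. The Serpinb3 copies are the mouse relatives of the squamous cell carcinoma antigens, which are raised in inflamed human skin.

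The 4 Serpinb3 copies are close duplicates, which bears on how reads were split among them. Over 1158 coding positions aligned without a gap, 945 carried the same base in all 4. Coding identity was 93.1% between Serpinb3a and Serpinb3b and 86.8% between Serpinb3c and Serpinb3d, against 63.4% between Serpinb3a and Serpinb12. Of all stretches of 50 bases, 15.2% of those in Serpinb3a, 14.7% in Serpinb3b, 12.2% in Serpinb3c and 13.4% in Serpinb3d also occurred in a transcript of another gene, among them the other copies and the predicted genes Gm8080 and Gm8089. With 100 bases the shares were 6.6% for Serpinb3a and 0.5% for Serpinb3b. Serpinb5, Serpinb7, Serpinb12 and Serpinb13 shared no stretch of 50 bases with any transcript. Neither the read length nor the handling of reads that fit several copies is stated in the labels, so the split of reads between copies is uncertain.

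The copies can be told apart best in the 60 coding bases shown next, the window with the fewest bases in common, in which 32 positions differ. It is shown because no other window of that length separates the copies by more bases, and because it lies near the end of the coding sequence, bases 1010 to 1069 of 1161 in Serpinb3a, in the last exon of each copy. The letters are from GENCODE transcripts on GRCm38, minus strand, at chr1:107046111-107046170 for Serpinb3a, chr1:107154464-107154523 for Serpinb3b, chr1:107271721-107271780 for Serpinb3c and chr1:107078288-107078347 for Serpinb3d, written 5′ to 3′ along the gene. Capitals mark positions where the 4 copies do not all carry the same base.
Serpinb3a: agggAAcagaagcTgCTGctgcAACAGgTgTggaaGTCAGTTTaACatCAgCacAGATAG
Serpinb3b: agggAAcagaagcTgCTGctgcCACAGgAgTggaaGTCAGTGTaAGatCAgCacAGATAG
Serpinb3c: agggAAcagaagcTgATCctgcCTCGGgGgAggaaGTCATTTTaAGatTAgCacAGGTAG
Serpinb3d: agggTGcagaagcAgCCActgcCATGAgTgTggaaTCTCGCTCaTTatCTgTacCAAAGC

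The 250 bases before the annotated starts are shown because Serpinb3a and Serpinb3b, whose upstream sequence is nearly the same, were far apart in untreated skin. Identity over the windows of 250 bases before to 50 after the start was 93.1% between Serpinb3a and Serpinb3b and 96.2% between Serpinb3b and Serpinb3c, but 60.4% between Serpinb3a and Serpinb3d, whose annotated transcript has 7 exons where the other copies have 8. Sequences are from RefSeq on GRCm38.p6, 5′ to 3′ along the gene, minus strand, at chr1:107052304-107052553, chr1:107161115-107161364, chr1:107278372-107278621 and chr1:107083481-107083730 in the order listed. Capitals mark the TATA box letters TATAAA, searched on the gene's strand only, which stood at position -65 in Serpinb3a, -41 in Serpinb3b and -31 in Serpinb3c relative to each annotated start and did not occur in the Serpinb3d window. These letters occur in 8.3% of all 32817 windows. In Serpinb3d the sequence from the annotated start on begins with atg, the letters of a start codon. Bases before them may be missing from its annotated transcript, so the Serpinb3d window may not be its promoter.
Serpinb3a: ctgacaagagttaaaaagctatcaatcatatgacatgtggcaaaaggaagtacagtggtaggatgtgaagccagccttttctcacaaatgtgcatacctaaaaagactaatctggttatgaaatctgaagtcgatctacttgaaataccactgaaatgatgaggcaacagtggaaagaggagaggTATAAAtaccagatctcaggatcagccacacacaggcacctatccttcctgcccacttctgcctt
Serpinb3b: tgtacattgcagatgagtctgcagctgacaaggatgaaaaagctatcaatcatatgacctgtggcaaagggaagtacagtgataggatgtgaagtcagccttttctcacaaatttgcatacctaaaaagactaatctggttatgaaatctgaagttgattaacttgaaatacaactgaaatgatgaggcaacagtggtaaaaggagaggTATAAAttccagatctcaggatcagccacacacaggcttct
Serpinb3c: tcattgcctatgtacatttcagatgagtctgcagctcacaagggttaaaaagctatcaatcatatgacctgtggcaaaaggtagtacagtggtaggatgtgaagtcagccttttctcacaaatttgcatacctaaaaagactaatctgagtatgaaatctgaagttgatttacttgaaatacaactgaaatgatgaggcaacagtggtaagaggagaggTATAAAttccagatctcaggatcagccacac
Serpinb3d: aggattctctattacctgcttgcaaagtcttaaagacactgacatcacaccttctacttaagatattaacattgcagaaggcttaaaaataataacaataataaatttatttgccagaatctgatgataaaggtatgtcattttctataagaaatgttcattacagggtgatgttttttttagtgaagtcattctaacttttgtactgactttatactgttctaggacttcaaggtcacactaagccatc

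Outside the Serpinb3 copies the windows had another feature in common. The letters TGANTCA are a loose form of the AP-1 site of the Fos and Jun family, which has C or G in the middle. They occurred in the windows of all 7 other clade B serpins of the cluster that were matched, 5 of them members. None of the 4 Serpinb3 windows held them, while 7.8% of all windows do. With C or G in the middle they stood in Serpinb7 and Serpinb8 only, as TGAGTCA. The other matches, that of Serpinb12 included, were TGAATCA or TGATTCA. The share of all windows with the stricter letters was not counted. Serpinb12 and Serpinb7 are shown as the pair whose match is at the same place, position -45, and whose levels differed in opposite directions. They lie on the plus strand at chr1:106934199-106934448 and chr1:107422439-107422688. Capitals mark TGANTCA in both, TATAAA in Serpinb12, and in Serpinb7 the STAT6 letters TTCNNNNGAA at -186 and -107, which 6.9% of all windows hold.
Serpinb12: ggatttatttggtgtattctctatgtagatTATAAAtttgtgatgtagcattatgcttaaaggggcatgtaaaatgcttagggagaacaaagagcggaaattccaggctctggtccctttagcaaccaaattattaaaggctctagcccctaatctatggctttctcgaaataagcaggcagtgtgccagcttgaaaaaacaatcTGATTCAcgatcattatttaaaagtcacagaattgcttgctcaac
Serpinb7: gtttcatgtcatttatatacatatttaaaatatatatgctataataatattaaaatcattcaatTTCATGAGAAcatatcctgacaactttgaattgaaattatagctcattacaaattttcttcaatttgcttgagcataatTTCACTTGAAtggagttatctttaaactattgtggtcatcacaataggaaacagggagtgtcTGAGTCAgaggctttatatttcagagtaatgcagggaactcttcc

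The shorter STAT letters TTCNNNGAA (8.3% of all windows) occurred in Serpinb2 alone among the 9 members with a window, and the grainyhead letters AACNGGTT (2.1%) in none of them. Both were searched on both strands. These are matches of letters within short windows and nothing about binding was measured. No window was matched for Serpinb13, and that of Serpinb3d may not be its promoter, for the reason given above.

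Values are scaled reads, the authors' read counts per gene after scaling of each library to about the same total. Behind them stood 4928245 to 7545567 reads per library, T3 being the deepest and U2 the shallowest. One read is worth 0.84 scaled reads in T3 and 1.29 in U2. Basal keratinocyte, fibroblast and skeletal muscle markers were present in every library, as whole skin should show. T3 stood apart from T1 and T2: summed neutrophil markers were 1470 scaled reads in T3 against 5051 and 3774, and summed hair follicle markers were 4724 against 2102 and 788. In bulk skin, fewer cells of a type and less RNA per cell cannot be told apart.

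In scaled reads, every treated library was above every untreated one for 5 members, the 4 Serpinb3 copies and Serpinb12, and below every untreated one for 3, Serpinb7, Serpinb8 and Serpinb2. Serpinb13 and Serpinb5 overlapped between the groups. In the fit over 15534 genes (limma on log2(value + 1), adjusted p under 0.05), 9 members passed the filter on low reads, of which 4 were called higher (Serpinb3a, Serpinb3b, Serpinb3d and Serpinb12) and 2 lower (Serpinb7 and Serpinb8), beside 9.26% of all tested genes called higher and 7.23% called lower. Of the 9, 4 were higher and 3 lower with no overlap of the groups, beside 21.7% and 15.6% of all tested genes. Since the members were chosen with these values known, nothing is read from those counts. The median log2 fold change, treated over untreated, was -0.15 over the 9 and 0.03 over all tested genes. The 4 higher calls held without any 1 library. Among them, Serpinb3d had no untreated read and passed the filter through its treated reads alone, so its call could only be higher. The lower calls fell to 0 without U1, U2 or T2 and to 1 without U3 or T1, and were 3 without T3. At an unadjusted p under 0.05 limma gave 3 lower members without U1, U2 or T2.

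**Figure D1:**
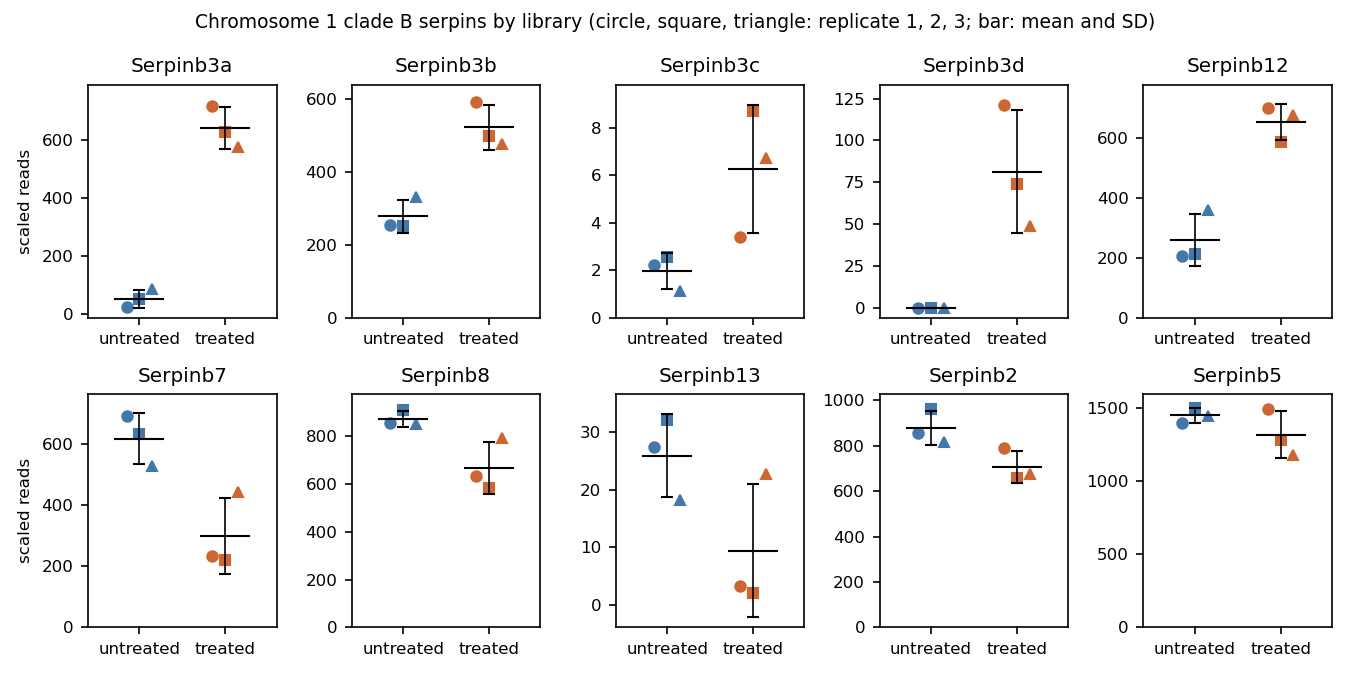
Scaled reads (y axis, linear) of the 10 members in each untreated (blue) and treated (orange) library, with the mean and SD of 3. Serpinb3a runs from 23.1 to 85.2 in untreated and from 576 to 719 in treated skin, and in the Serpinb7, Serpinb8 and Serpinb13 panels the triangle of T3 lies nearest the untreated points.

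Serpinb3a, which inhibits both serine and papain-like cysteine proteases, stood at 23.1 (U1), 50.2 (U2) and 85.2 (U3) scaled reads without treatment and at 719 (T1), 629 (T2) and 576 (T3) with it. The lowest treated library was far above the highest untreated one. The means were 52.8 ± 31.1 and 642 ± 72.2 (SD, n = 3), a log2 fold change of 3.76 ± 0.38 (SE). The untreated libraries differed among themselves more than the treated ones, and the value without U1 was 3.27 and without U3 4.19. Serpinb3a lies at mm10 chr1:107045587-107052303 on the minus strand.

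Serpinb3b, the copy most like Serpinb3c in coding sequence, at chr1:107153961-107161114, was already well expressed in untreated skin, with 254 (U1), 251 (U2) and 331 (U3) scaled reads. Treated libraries T1, T2 and T3 had 593, 499 and 478. The groups did not overlap, and the difference was smaller than that of Serpinb3a, with a log2 fold change of 0.91 ± 0.13 (SE).

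Serpinb3d, at chr1:107078193-107083480, had no read in any untreated library and 107, 68 and 58 reads (121, 74.1 and 48.7 scaled reads) in T1, T2 and T3. It was read in the treated group only. Against a floor of 3 reads over the untreated group, the 233 treated reads are at least 66.6-fold higher. Its fitted log2 fold change depends on the pseudocount (4.02 with 5, 7.26 with 0.5) and is not used.

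Serpinb3c, at chr1:107271201-107278371, had the fewest reads of the copies over all 6 libraries and did not pass the filter. It had 5 reads in all in untreated skin and 19 in treated skin, a ratio of 3.26 (95% counting interval 1.18 to 11.2). U1, U2 and U3 had 2.20, 2.57 and 1.14 scaled reads, and T1, T2 and T3 had 3.39, 8.71 and 6.72. The groups did not overlap, but T1 was only 1 read above U1 and U2, so the order rests on single reads.

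The make-up of the Serpinb3 reads differed between the groups as well as their amount. The 4 copies together had 333 ± 73.5 scaled reads in untreated and 1252 ± 167 in treated skin (SD, n = 3), 3.76-fold more, with a log2 fold change of 1.92 ± 0.15 (SE) when fitted as 1 gene. Serpinb3b held 90.9%, 82.6% and 79.3% of the reads in U1, U2 and U3 and 41.3%, 41.2% and 43.1% in T1, T2 and T3. Serpinb3a held 8.27% (95% exact binomial interval 5.19 to 12.4), 16.5% (12.0 to 21.9) and 20.4% (16.4 to 24.9) in the untreated libraries. It held 50.1% (47.3 to 52.9), 52.0% (49.0 to 55.0) and 51.9% (49.2 to 54.7) in the treated ones. Serpinb3a was thus the lesser copy in all untreated libraries and the leading one in all treated libraries, and its share varied over a wider range between untreated than between treated libraries. The share of Serpinb3d was 8.43%, 6.12% and 4.39% in T1, T2 and T3, and the exact upper limits for its count of 0 were 1.44%, 1.55% and 1.00% in U1, U2 and U3. The intervals cover counting error only, not the assignment of reads that fit more than 1 copy.

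**Figure D2:**
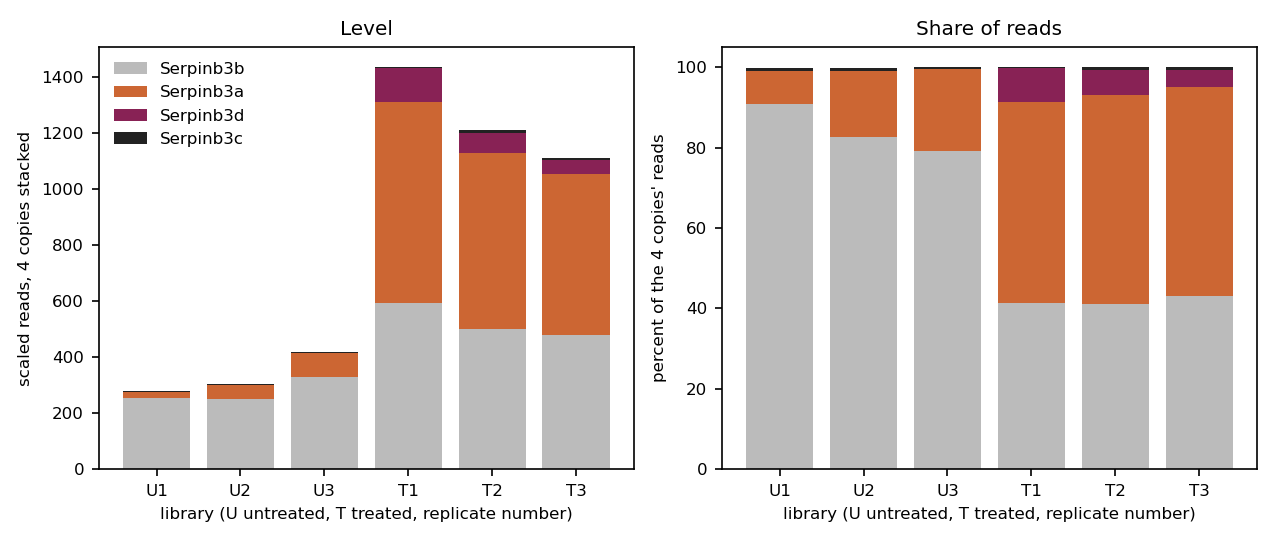
Scaled reads of the 4 Serpinb3 copies stacked by library (left) and each copy's percent of their recovered reads (right), untreated U1 to U3 and treated T1 to T3. The total goes from a mean of 333 to 1252, and Serpinb3a goes from 8.27 to 20.4 percent in untreated to 50.1 to 52.0 percent in treated libraries.

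Serpinb12, an inhibitor of trypsin-like serine proteases, lies at chr1:106934449-106957081 on the plus strand. It was the only member outside the Serpinb3 copies with a higher mean of scaled reads in treated skin. U1, U2 and U3 had 205, 212 and 360 scaled reads and T1, T2 and T3 had 701, 588 and 680. The groups did not overlap, although U3 stood above the other untreated libraries. The log2 fold change was 1.38 ± 0.20 (SE), and 1.64 without U3.

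Serpinb7, also known as megsin, at chr1:107422689-107452689, was lower in treated skin. U1, U2 and U3 had 691, 632 and 528 scaled reads and T1, T2 and T3 had 234, 221 and 443. T1 and T2 were alike and T3 stood between them and the untreated libraries. The log2 fold change was -1.11 ± 0.24 (SE) over the 6 libraries and -1.43 without T3.

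Serpinb8, an inhibitor of furin and trypsin-like proteases at chr1:107590006-107608978, stood at 854 (U1), 910 (U2) and 851 (U3) scaled reads without treatment and at 632 (T1), 580 (T2) and 789 (T3) with it. The untreated libraries lay close together, and again T3 was the treated library nearest to them. The log2 fold change was -0.40 ± 0.11 (SE), and -0.52 without T3.

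Serpinb13, also known as headpin, an inhibitor of cathepsins L and K at chr1:106980984-107001195, was a gene of few reads, 66 in untreated and 32 in treated skin. U1, U2 and U3 had 27.5, 32.2 and 18.2 scaled reads and T1, T2 and T3 had 3.39, 2.18 and 22.7. T1 and T2 were below every untreated library, whereas T3 lay above U3, so the groups overlapped. The log2 fold change was -1.92 ± 0.69 (SE), -2.81 without T3, -1.36 without T2 and -1.36 with a pseudocount of 5.

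Across the members, T3 was the treated library nearest the untreated mean for 6 of 10, namely Serpinb3a, Serpinb3b, Serpinb3d, Serpinb7, Serpinb8 and Serpinb13. Its summed neutrophil and wound keratinocyte markers were also nearer the untreated values (wound keratinocytes 5611 scaled reads in T3, 8499 and 7786 in T1 and T2, 5284 to 5574 in untreated skin). For other lists T3 was the treated library farthest from the untreated values, with summed levels of 4724 scaled reads for the hair follicle, 14043 for basal and 13544 for suprabasal keratinocytes and 7237 for skeletal muscle. Some abundant markers had nearly the same number of reads in every library whatever its depth, such as Krt5 (1657 to 1828 reads) and Acta1 (1208 to 1296). Their scaled values were lowest in T3, the deepest library. The part of depth in the summed levels was not tested, nor was the part of these differences in the serpin values of T3.

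Serpinb2, known as plasminogen activator inhibitor-2, which blocks urokinase, at chr1:107511510-107525600, stood at 855 (U1), 961 (U2) and 817 (U3) scaled reads without treatment and at 788 (T1), 658 (T2) and 677 (T3) with it. The groups did not overlap but lay close. The log2 fold change was -0.31 ± 0.10 (SE), and -0.21 in the 4 libraries of like depth (U1, U3, T1 and T2).

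Serpinb5, known as maspin, a serpin that does not inhibit proteases, at chr1:106861175-106883348, stood at 1399 (U1), 1499 (U2) and 1446 (U3) scaled reads without treatment and at 1492 (T1), 1281 (T2) and 1174 (T3) with it. The groups overlapped, T1 being second only to U2. The log2 fold change was -0.15 ± 0.09 (SE), and -0.04 in the libraries of like depth. Serpinb5 also had the most reads per base of the 10, up to 0.519, its highest value was in the shallowest library and its lowest in the deepest. The part of depth in the Serpinb5 and Serpinb2 differences was not tested beyond the libraries of like depth.

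Per kilobase of transcript, the order of levels changed more in the middle than at the ends. In untreated skin the scaled reads per kb were 538 ± 18.6 for Serpinb5, 443 ± 37.7 for Serpinb2, 329 ± 43.9 for Serpinb7, 284 ± 10.8 for Serpinb8, 172 ± 27.9 for Serpinb3b and 154 ± 52.0 for Serpinb12 (SD, n = 3). Serpinb3a followed with 32.6 ± 19.2, Serpinb13 with 16.2 ± 4.46 and Serpinb3c with 1.20 ± 0.450, and Serpinb3d had no read. The library ranges overlapped for the neighbours Serpinb7 and Serpinb8, Serpinb3b and Serpinb12, and Serpinb3a and Serpinb13. In treated skin Serpinb5 (489 ± 60.1 scaled reads per kb), Serpinb3a (396 ± 44.6), Serpinb12 (391 ± 35.7), Serpinb2 (357 ± 35.5) and Serpinb3b (322 ± 37.6) formed a run in which each overlapped the next. Below them came Serpinb8 at 218 ± 35.4 and Serpinb7 at 159 ± 66.3, which overlapped each other, and then Serpinb3d at 70.3 ± 31.7. Serpinb13 and Serpinb3c were last, at 5.90 ± 7.21 and 3.80 ± 1.63, and overlapped. Serpinb3a thus stood at place 7 of 10 in untreated and at place 2 in treated skin, and Serpinb7 went from place 3 to place 7.

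Along the chromosome, the members with more scaled reads in treated skin lay near each other. In order of position they were Serpinb12, then Serpinb3a, Serpinb3d, Serpinb3b and Serpinb3c, with Serpinb13 between Serpinb12 and Serpinb3a. Serpinb11 and Serpinb10, farther along, were not called by limma over the 6 libraries, and Serpinb10 was called in 1 of 17 settings, without T1. Serpinb11 had a log2 fold change of -0.11 ± 0.17 (SE), adjusted p = 0.7, with overlapping groups, and Serpinb10 one of -0.35 ± 0.12, adjusted p = 0.0715, lower in every treated library. The Serpinb10 transcript shares 13.4% of its 50-base stretches with an annotated Serpinb2 transcript. One of the 2 had an unadjusted p under 0.05, and edgeR and DESeq2 called 0 of them as well. The 5 nearest other protein-coding genes with a row on each side were tested too. They lie 64.4 to 827.1 kb before the cluster and 3279 to 10780 kb after it, so those after it are far from the serpins. Their log2 fold changes ran from -0.49 for Cdh19 to 0.37 for Dsel, and Vps4b, next to Serpinb5, had 0.05 ± 0.08 (SE). None of the 10 was called by limma, edgeR or DESeq2, while 3 had an unadjusted p under 0.05 in limma and 2 in each of the others.

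**Figure D3:**
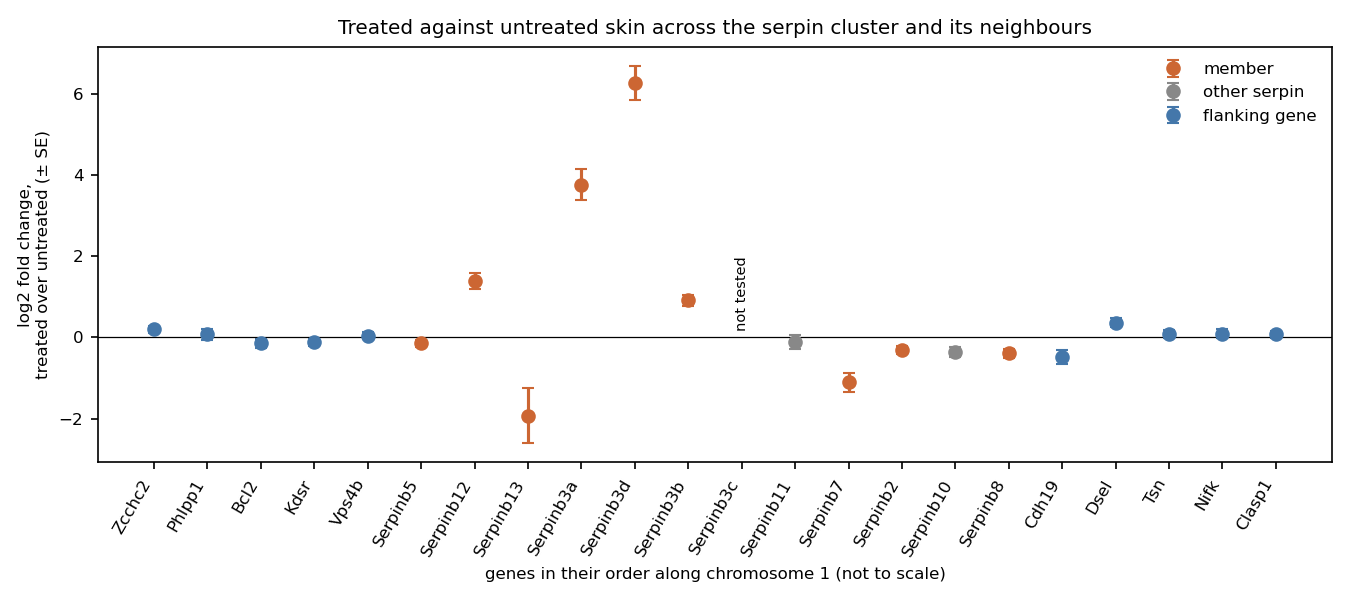
Log2 fold change, treated over untreated (y axis, bars are SE), of the members, Serpinb10 and Serpinb11 and the 5 nearest other genes on each side, in chromosome order. Distances are not to scale and reach 10780 kb after the cluster. Flanking genes lie between -0.49 and 0.37, Serpinb3a is at 3.76, the point of Serpinb3d depends on the pseudocount, and Serpinb3c was not tested.

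Proteases of the kinds these serpins act on, a list of 30 genes including the urokinase receptor, had 29 with a row and 26 tested, of which 7 rose and 1 fell, with a median log2 fold change of 0.23. Over all tested genes 9.26% were called higher and 7.23% lower. This list and those below were chosen with earlier results of these data known, so nothing is read from their counts. The tissue kallikreins, serine proteases that loosen the outer epidermis, were not uniform. Klk14 rose from 35.2, 23.2 and 51.1 to 259, 199 and 197 scaled reads, a log2 fold change of 2.61 ± 0.28 (SE, limma adjusted p = 0.00135). Klk13 rose from 120 ± 33.3 to 407 ± 56.9 scaled reads (SD, n = 3; limma adjusted p = 0.0021). Klk5 fell (log2 fold change -0.29, limma adjusted p = 0.0479), a call lost when any library but T3 was left out (adjusted p 0.0632 to 0.174) and in the libraries of like depth (0.0549). Klk7 had -0.11 ± 0.08 (SE, limma adjusted p = 0.389).

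On the urokinase side, Plau, the target of Serpinb2, rose from 436 (U1), 412 (U2) and 436 (U3) to 688 (T1), 677 (T2) and 529 (T3) scaled reads (log2 fold change 0.55 ± 0.11 SE, limma adjusted p = 0.0132, and 0.0566 without T2). Its receptor gene Plaur rose from 67.5 ± 1.81 to 235 ± 138 scaled reads (limma adjusted p = 0.0141), with T1 at 392 well above T2 and T3. Serpinb2 itself was lower in the same treated libraries. The papain-like cathepsins Ctsl and Ctsk, targets of Serpinb13, had log2 fold changes of 0.05 ± 0.09 and 0.14 ± 0.12 (SE; limma adjusted p = 0.719 and 0.451). Ctss had 0.47 ± 0.14 (limma adjusted p = 0.053).

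The granzyme genes of cytotoxic lymphocytes, Gzma (3.15 ± 0.63 SE on the log2 scale, limma adjusted p = 0.0128, and 0.055 without T2) and Gzmb (1.79 ± 0.37, limma adjusted p = 0.0144, 0.0589 without T1 and 0.0667 without T2), rose from few reads. The mast cell tryptase gene Tpsb2 (0.41, limma adjusted p = 0.0483) was not called without U1, U2, T1, T2 or T3 (0.0644 to 0.163) nor by edgeR (0.066) or DESeq2 (0.0836).

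**Figure D4:**
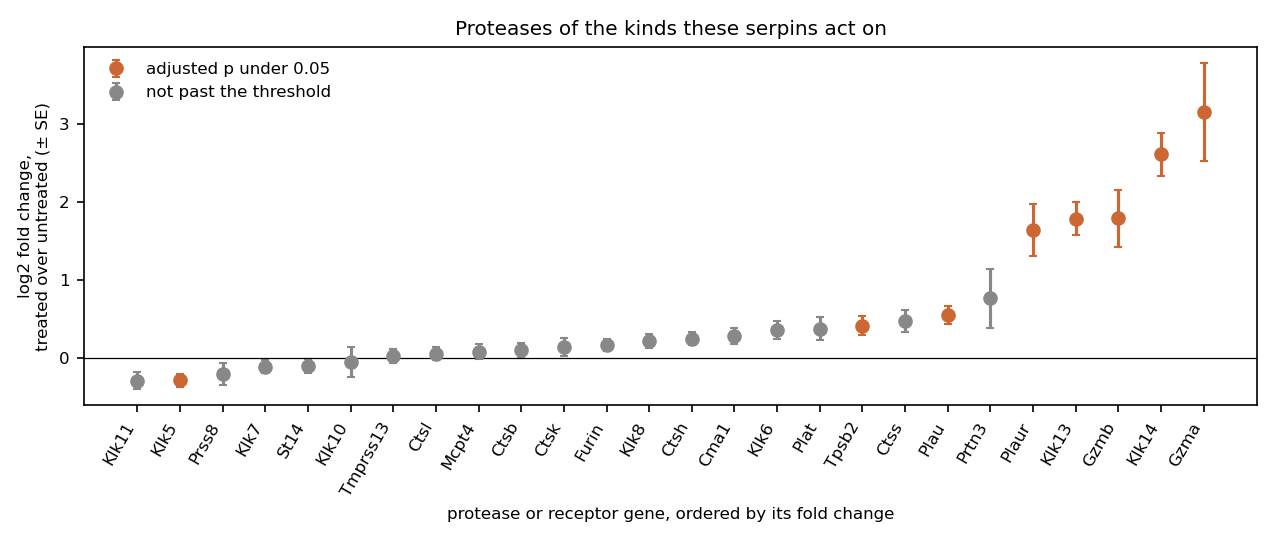
Log2 fold change, treated over untreated (y axis, bars are SE), of the 26 tested genes of the protease list, ordered by value, with those at adjusted p under 0.05 in orange. Klk14 at 2.61 and Gzma at 3.15 are the highest and most of the others lie near 0.

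Of 38 cytokine and transcription factor genes that are known to act on epidermal serpins or on keratinocyte state, 33 were tested, 8 rose and 2 fell, with a median log2 fold change of 0.11. The cytokine genes Il19, Il24 and Il17f rose. Il19 had 4.40, 3.86 and 4.54 scaled reads in untreated and 168, 106 and 112 in treated libraries (log2 fold change 4.59 ± 0.28 SE, limma adjusted p = 3.91e-04). Il24 and Il17f had no read in untreated skin (limma adjusted p = 8.22e-04 and 0.00111). Both passed the filter through their treated reads alone, so their calls could only be higher. The receptor genes Il20ra (-1.55 ± 0.20 SE, limma adjusted p = 0.00305) and Il20rb (-0.48 ± 0.07, limma adjusted p = 0.00536) fell. Il4 and Il13, inducers of the squamous cell carcinoma antigens in human keratinocytes, did not pass the filter. They had means of 2.34 and 7.92 scaled reads in untreated and 5.36 and 3.07 in treated skin. Il17a (0.75 in untreated and 12.5 in treated skin), Il22 (0 and 6.40) and Il20 (3.99 and 8.89) did not pass either. The groups did not overlap for Il17a and Il22 and overlapped for Il20. Stat6 (0.11 ± 0.07 SE, limma adjusted p = 0.335), Stat3 (0.08 ± 0.10, adjusted p = 0.612), Jun (0.10 ± 0.08, adjusted p = 0.429) and Fos (-0.21 ± 0.15, adjusted p = 0.391) were not called. Fosl2, of the Fos family, rose from 1476 ± 74.0 to 1779 ± 53.2 scaled reads (SD, n = 3; log2 fold change 0.27 ± 0.07 SE, limma adjusted p = 0.0319). That call was made in 7 of 17 settings and was lost when any library but T3 was left out (adjusted p 0.0664 to 0.0954).

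Markers of keratinocytes and of other cells of whole skin differed between the groups as follows. Of 8 basal keratinocyte markers 2 fell, Krt15 and Col17a1 (adjusted p = 0.0132, and 0.052 without U1), and their summed level was 16647 to 17954 scaled reads in untreated and 14043 to 16024 in treated skin. Of 12 suprabasal markers 1 rose, Tgm3, and 2 fell, Sbsn and Lor, with summed levels of 15021 to 15968 and 13544 to 15578. Of 8 wound keratinocyte markers 3 rose and 0 fell, with summed levels of 5284 to 5574 and 5611 to 8499. Gjb6 and Gjb2 (log2 fold changes 1.46 and 1.40) were called in all 17 settings and Krt6b (0.66) in 9. Of 10 macrophage and monocyte markers 4 rose, Ly6c2, Cd68, Fcgr1 and Cd14, with summed levels of 3769 to 5041 and 5316 to 7622. Fcgr1 was not called without U1, U2, T1 or T2 (adjusted p 0.0508 to 0.112), nor Cd14 without any library but T3 (0.0688 to 0.132). Of 9 tested neutrophil markers 8 rose, with summed levels of 714 to 953 and 1470 to 5051. Of 8 tested markers of the hair follicle inner root sheath and shaft all 8 rose, among them the keratin genes Krt25, Krt71, Krt73 and Krt27, with a median log2 fold change of 4.30 and summed levels of 140 to 200 and 788 to 4724. Of 6 adipocyte markers 4 fell, Lep, Plin1, Adipoq and Retn, with summed levels of 3612 to 4658 and 2519 to 2889. Adipoq was not called without T1 or T2 (0.0587 and 0.0608), nor Retn without U1, U2 or T1 (0.0574 to 0.0596). Of 6 sebocyte markers 4 fell, Soat1, Elovl3, Scd1 and Awat2, with summed levels of 6909 to 7341 and 4864 to 5486. Soat1 was called in all 17 settings, whereas each library left out ended the call of at least 1 of Elovl3 (0.0542 to 0.0591), Scd1 (0.0535 to 0.0881) and Awat2 (0.117 to 0.146). All these calls are from the same limma fit, and the part of cell composition in the serpin values was not tested.

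Among 15525 other genes with a mean of at least 5 scaled reads, the profiles most like that of the summed Serpinb3 copies over the 6 libraries (log2 scale) were those of Bend5 (Pearson r = 0.999), Tbk1, Pitpnm3, Fmnl3 and Grip1 (0.996). Nearest to Serpinb12 were Mterf4, Usp3 and Cdk2 (r = 0.995 each), nearest to Serpinb2 Abra (0.998), Gpx4 and Ostn, and nearest to Serpinb5 Dynll1 (0.997), Letm1 and Lypla2. These values are over only 6 libraries in 2 groups and are given as a description. The size of the difference was not matched: Tbk1 had a log2 fold change of 0.26 and the summed Serpinb3 copies 1.92.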

How the data were processed

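Values come from 1 deposited table. The submitters' processing notes name mm10 as the build and, as tools, STAR, DESeq2 and bcl2fastq 2.20.0.422. No source used here names the read counter. The 6 value columns hold the authors' deposited scaled signal per gene. Log2 fold changes by the authors stand beside them, as do p-values by the authors. Neither is printed. Divided by the worth of 1 read, 100.0% of values were whole to within 0.1, so read counts were recovered from the deposited values. Their totals were 4928245 to 7545567.

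The recovered reads were filtered with filterByExpr of edgeR 4.0.16 (minimum count 10, total 15). The 15534 genes left were fitted by limma 3.58.1 (R 4.3.3) to log2(value + 1), comparing the groups without other terms, with trended variance and p-values adjusted by Benjamini-Hochberg. Fold changes on this scale understate those of low genes. DESeq2 1.42.0 and the edgeR quasi-likelihood test on recovered reads were among the alternatives. The test was checked on simulated data. P-values measure the spread between these samples only. The floor was 3 reads over a group. The members and all 14 lists were chosen with earlier results of these data known. Named genes were the members, Serpinb10, Serpinb11, 5 flanking genes on each side, called list genes by smallest p, and genes of like profile. Genes not called and called genes beyond 4 of a list are named outside that rule, after their values were seen. Coding sequences were aligned with MAFFT 7.526 and Biopython 1.88, and figures drawn with matplotlib 3.10.9 in Python 3.11.15.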

Additional observations from a re-analysis of the deposited data

How the results depend on the processing

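The count of 4 higher members was the same under all 16 alternatives that give one. That count includes Serpinb3d, which had no untreated read and could only be called higher. No member changed sign under these alternatives or with the Serpinb3 copies summed. Of 147 member values under alternatives, 140 moved by less than 1 SD of the replicates. The other 7 were the fitted value of Serpinb3d under both other pseudocounts, edgeR and DESeq2 (4.02 to 9.21), and Serpinb3a, Serpinb3b and Serpinb3d with the copies summed (1.92). Without a trend in the spread, 922 genes were called higher and 640 lower over the whole table and 0 members lower (4 at an unadjusted p under 0.05), and with DESeq2 25 list genes were lower against 15. Leaving out 1 library at a time gave 610 to 1420 genes higher and 529 to 1344 lower over the table (1439 and 1123 with all 6; 691 and 545 without U1, 761 and 647 without U2, 859 and 623 without T1, 610 and 529 without T2), 0 to 3 members lower and 10 to 22 list genes lower. With TMM scaling, edgeR, DESeq2 or the 4 libraries of like depth, 3 members were lower.

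With the replicate number as a block, 1348 genes were called higher and 1096 lower and the same counts of members, 4 and 2. Deviations of same-numbered samples correlated at -0.085, -0.055 and 0.054, within the range of differently numbered pairs (-0.098 to 0.146). With 3 libraries per group, these values cannot show whether same-numbered samples share a batch or day. Reads limit Serpinb3c, with 24 in all, and Serpinb13, with 98.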
